A study of Neogale vison with 6 samples.

Results

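The circadian clock genes were followed as a set of 10 genes, taken from the count table by symbol: the activators ARNTL (also called BMAL1) and CLOCK, the repressors PER1, PER2, PER3, CRY1 and CRY2, the nuclear receptors NR1D1 and NR1D2, and the output factor DBP. All 10 were found among the 24526 genes of the table, BMAL1 under its older symbol ARNTL, and 9 had enough reads to be tested. RNA was sequenced from Mv1Lu cells, an epithelial line from mink lung, as 3 libraries of untreated cells (control) and 3 libraries of cells subjected to cholesterol depletion (CD). For CD, the cells were kept for 16 h with 50 μM lovastatin, a statin that blocks HMG-CoA reductase, together with 50 μM mevalonate, the product of that enzyme, in medium with 10% lipoprotein-deficient serum (LPDS). The comparison therefore covers statin, mevalonate and serum as a whole. Each group comes from a single cell line sampled at a single time, so a change in the level of a clock gene and a change in the phase of its daily cycle cannot be told apart.

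The mammalian clock is a transcriptional feedback loop that runs in most cells, lung epithelium included. ARNTL and CLOCK bind together to E-box elements and activate the PER and CRY genes, NR1D1, NR1D2 and DBP. PER and CRY proteins return to the nucleus and block ARNTL and CLOCK, while NR1D1 and NR1D2 (REV-ERBα and REV-ERBβ) repress ARNTL and other genes in a second loop that links the clock to lipid metabolism. In cultured cells, serum, glucocorticoids and cAMP are known to act on PER1 and to set the phase of the clock.

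The reads counted on genes ranged from 13473820 to 18633764 per library. Reads that could not be assigned to a gene, unmapped reads included, made up 29.3% to 47.2% of a library. The unmapped reads alone made up 3.54% to 18.4%, with the highest unmapped shares in control replicates 1 and 2. Levels are given as CPM (counts scaled to a common library size) after TMM normalization, and a single read corresponds to 0.0551 to 0.0723 CPM. The epithelial label could be checked only in part. Of 8 epithelial markers 6 were found, and KRT19 and TJP1 were well expressed, whereas CDH1 and EPCAM had at most 6 and 4 counts in any library. The summed level of the epithelial markers was 1084 to 1210 CPM in control and 582 to 668 CPM in CD, most of it from KRT19, which fell (log2 fold change -1.03, FDR 2.74e-04, edgeR). CLDN4 and DSP, at low levels, rose by 3.55 and 1.46 on the log2 scale (FDR 9.61e-06 and 0.00140, edgeR), and TJP1 was not called (FDR 0.122). The 7 fibroblast markers, led by COL1A2, summed to 310 to 387 CPM in control and 183 to 232 CPM in CD, and the 5 endothelial markers, nearly all from TEK, which fell, to 206 to 221 and 75.9 to 124 CPM. VWF, at most 27 counts in any library, was called higher (log2 fold change 3.38, FDR 8.82e-04, edgeR). The 4 leukocyte markers found summed to 0.0723 to 0.220 CPM in control and 0.738 to 0.920 CPM in CD, and CD14, the only one tested, was called higher from at most 15 counts in any library (log2 fold change 2.37, FDR 0.00141, edgeR). Their part in the changes of the clock genes was not tested.

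In CD, 5 of the 9 tested clock genes rose (ARNTL, NR1D2, PER3, NR1D1 and DBP), PER1 fell, and CRY1, CRY2 and CLOCK did not pass the test. A gene was called when its false discovery rate (FDR), adjusted over all 12148 genes tested, was below 0.05 in edgeR. By this rule 47.7% of all genes were called, 24.8% as higher and 22.9% as lower, so calls were common in this comparison and the 6 calls of 9 are to be read against that share. The median log2 fold change was 0.58 over the 9 clock genes and 0.06 over all tested genes. For the 5 genes that rose, the lowest CD library lay above the highest control library, as in 29.5% of all tested genes, and for PER1 the order was the opposite, as in 28.6%. The groups were apart in one direction or the other in 58% of all tested genes. The smallest two-sided p that an exact permutation of 3 against 3 libraries allows is 0.1, and each of these 6 genes reached it. In bulk RNA, fewer cells with a transcript and less of it per cell cannot be told apart.

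**Figure D1:**
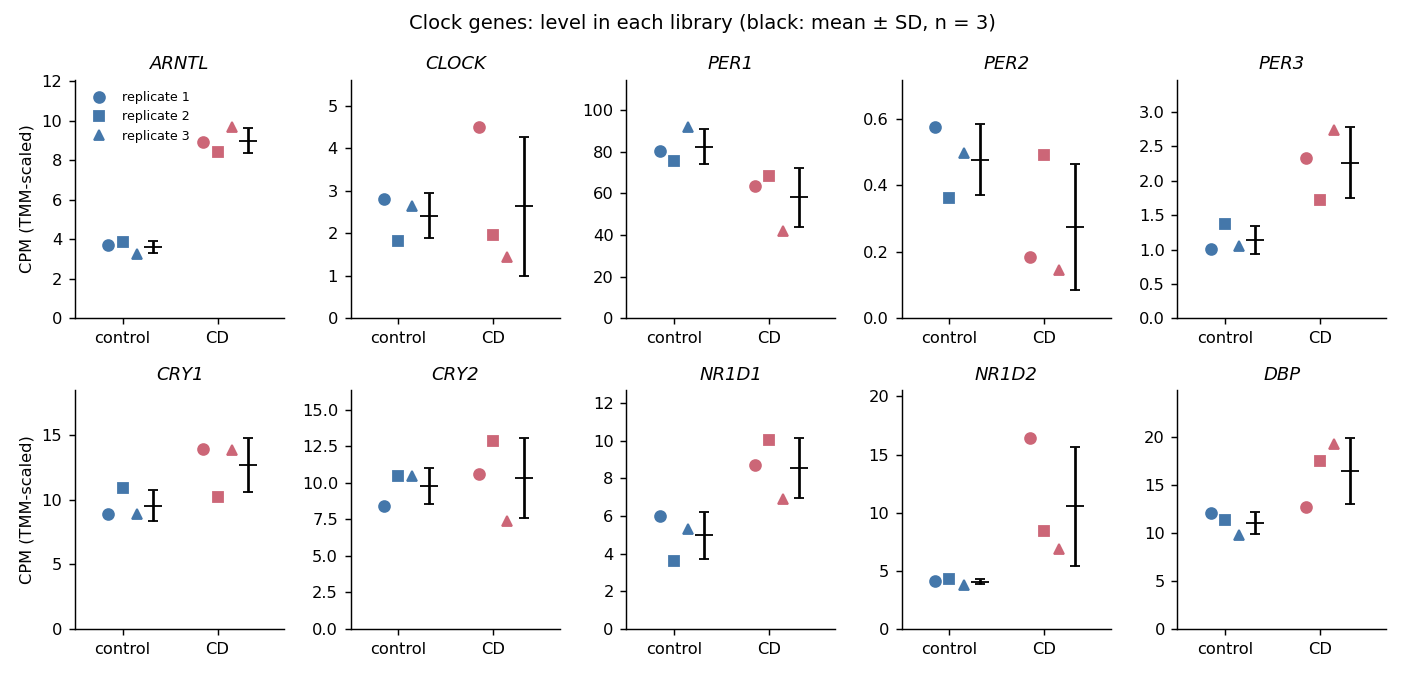
Level of each of the 10 clock genes in the 6 libraries, in CPM after TMM scaling on linear axes that start at 0 and differ between panels; symbols mark the replicate number, and the black bars the mean ± SD of 3 libraries. ARNTL is the gene with the clearest gap, with control libraries at or below 3.83 CPM and CD libraries at or above 8.40 CPM, while NR1D2 and CLOCK are spread widely among the CD libraries.

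ARNTL (ENSNVIG00000020993) is the partner of CLOCK, and the clock does not run without it. Its level was 3.73, 3.83 and 3.25 CPM in control replicates 1, 2 and 3. In CD replicates 1, 2 and 3 it was 8.91, 8.40 and 9.65 CPM. The groups were far apart, and each was tight. The mean level (± SD, n = 3 each) went from 3.60 ± 0.309 to 8.99 ± 0.628 CPM, a rise of 1.32 ± 0.18 on the log2 scale (estimate ± standard error, as for the log2 fold changes that follow), or 2.50-fold (FDR 2.73e-04, edgeR). ARNTL had the lowest FDR of the clock genes.

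CLOCK (ENSNVIG00000014200), the partner of ARNTL, did not pass the test. Its level was 2.79, 1.81 and 2.64 CPM in the control and 4.49, 1.96 and 1.44 CPM in the CD libraries. CD replicate 1 lay above all control libraries and CD replicate 3 below them, so the groups overlapped. The log2 fold change of 0.13 had a 95% interval from -0.75 to 1.01 (FDR 0.806, edgeR). The reads summed to 112 over control and 125 over CD libraries, and the coefficient of variation was 22.0% in control and 61.9% in CD. Without CD replicate 1 the log2 fold change was -0.49 (FDR 0.184, edgeR). In the gene table of another mink assembly, CLOCK overlaps other gene models, so its counts may also depend on how reads were assigned there.

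PER1 (ENSNVIG00000004866), a repressor that also responds rapidly to outside signals, was the only clock gene called lower. It was at 80.2, 75.4 and 91.7 CPM in control and at 63.8, 68.3 and 42.1 CPM in CD libraries. All CD libraries were below the control libraries, with CD replicate 3 far below the others. The log2 fold change was -0.50 ± 0.18 (FDR 0.0402, edgeR), or 0.705-fold. This call was near the threshold: it was lost without any of the control libraries (FDR 0.0592 to 0.158, edgeR), with upper-quartile scaling (FDR 0.0510) and with total counts (FDR 0.0710).

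PER3 (ENSNVIG00000005886), whose loss affects the clock less than that of its relatives, changed in the other direction from a low level. It was at 1.003, 1.37 and 1.05 CPM in control and at 2.34, 1.72 and 2.74 CPM in CD libraries, with no overlap. Its log2 fold change was 0.98 ± 0.28 (FDR 0.0146, edgeR), and it was not called without control replicate 1 or 3 (FDR 0.0603 and 0.0641). PER2 (ENSNVIG00000022095), a core repressor, had 8, 5 and 9 counts in control and 3, 8 and 2 counts in CD, too few to be tested under the main filter. When that filter was left out, its log2 fold change was -0.77 with a 95% interval from -1.90 to 0.37 (FDR 0.330, edgeR), so a change of PER2 was not detectable at this depth.

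The cryptochromes, which give the PER-CRY complex most of its repressing activity, did not pass the test. CRY1 (ENSNVIG00000011497) was at 8.88, 10.9 and 8.87 CPM in control and at 14.0, 10.2 and 13.8 CPM in CD libraries. CD replicates 1 and 3 lay above all control libraries, and CD replicate 2 lay among them. The log2 fold change of CRY1 was 0.41, with a 95% interval from -0.02 to 0.83 (FDR 0.103, edgeR). CRY2 (ENSNVIG00000013168) was at 8.38, 10.5 and 10.5 CPM in control and at 10.6, 12.9 and 7.42 CPM in CD libraries. Here the groups overlapped in both directions, and the log2 fold change was 0.08, with a 95% interval from -0.42 to 0.58 (FDR 0.794, edgeR).

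Both REV-ERB genes rose. NR1D1 (ENSNVIG00000002922) was at 6.02, 3.61 and 5.29 CPM in control and at 8.73, 10.1 and 6.92 CPM in CD libraries, and the lowest CD library, replicate 3, was close to the highest control library, replicate 1. Its log2 fold change was 0.78 ± 0.24 (FDR 0.0205, edgeR), or 1.72-fold. Without control replicate 2 or 3 or CD replicate 2 it was not called (FDR 0.0604 to 0.0894). The study shows NR1D1 in a heat map of genes it selected on these same libraries. All calls given here, that of NR1D1 included, rest on the same 6 libraries, so none is evidence independent of the study. In the gene table of another mink assembly NR1D1 lies 161 bases from THRA, a thyroid hormone receptor gene, and the use of strand in the counting is unknown here. THRA was at 36.3 ± 3.98 CPM in the control and at 36.1 ± 4.48 CPM in the CD libraries (SD, n = 3 each; log2 fold change -0.01, 95% interval from -0.33 to 0.32, FDR 0.973, edgeR).

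NR1D2 (ENSNVIG00000018847), the relative of NR1D1 with largely shared targets, was at 4.16, 4.26 and 3.80 CPM in control and at 16.4, 8.40 and 6.84 CPM in CD libraries. The control libraries were nearly equal, while CD replicate 1 was 2.40-fold above CD replicate 3 in CPM. The log2 fold change was 1.38 ± 0.31 (FDR 0.00501, edgeR), or 2.60-fold. It stayed called without CD replicate 1, but at a log2 fold change of 0.92.

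DBP (ENSNVIG00000012215), a PAR bZIP factor that passes the rhythm on to genes with a D-box and is a direct target of ARNTL and CLOCK, was at 12.0, 11.3 and 9.75 CPM in control and at 12.7, 17.5 and 19.2 CPM in CD libraries. CD replicate 1 was barely above the highest control library, and CD replicates 2 and 3 were clearly above it. The log2 fold change was 0.58 ± 0.20 (FDR 0.0342, edgeR), or 1.49-fold. The call was lost without any of the control libraries or CD replicate 2 (FDR 0.0681 to 0.138) and with the replicate number as a block (FDR 0.0531, edgeR).

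**Figure D2:**
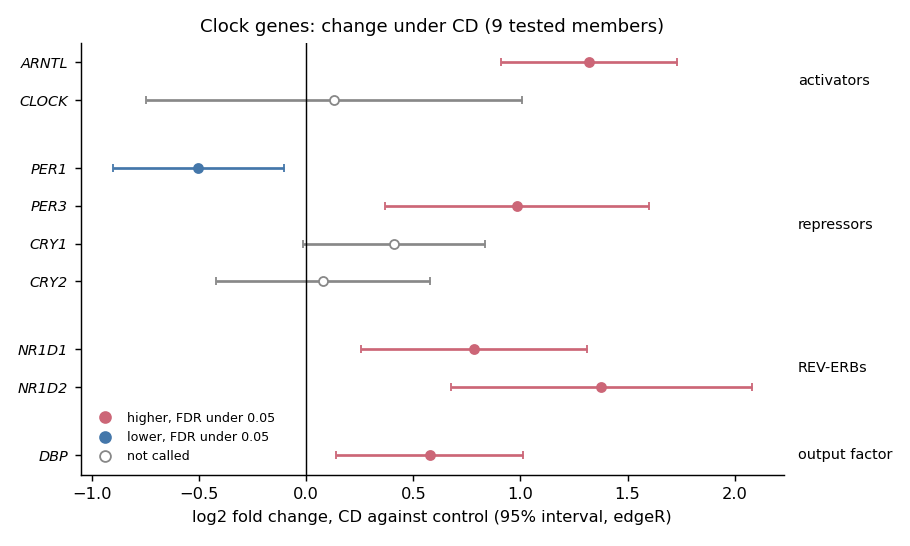
Log2 fold change of CD against control for the 9 tested clock genes, with 95% intervals from edgeR, ordered by role; filled points passed an FDR of 0.05. ARNTL and NR1D2 lie highest at 1.32 and 1.38, PER1 lies below 0, and the intervals of CLOCK, CRY1 and CRY2 include 0.

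To compare paired clock genes without any scaling of the libraries, the ratio of their counts was taken within each library. The log2 ratio of PER1 to PER3 was 6.14 ± 0.355 in control and 4.66 ± 0.688 in CD (SD, n = 3 each), so that PER1 reads per PER3 read fell to 0.357 of the control value. This was the only ratio of the 6 examined whose groups did not overlap (two-sided exact permutation p = 0.1; 0.4 after adjustment over the 6 ratios). The log2 ratio of CLOCK to ARNTL was -0.59 ± 0.418 in control and -1.93 ± 0.875 in CD, and CD replicate 1 (-0.99) overlapped with control replicate 2 (-1.07) (exact permutation p = 0.2, adjusted 0.4). The difference in log2 ratio was -0.47 for NR1D1 to NR1D2, 0.35 for CRY1 to CRY2, 0.35 for PER1 to PER2 and -1.84 for PER2 to PER3 (exact permutation p = 0.4, 0.5, 0.5 and 0.2). None of the ratios passed the adjustment, which a design of 3 against 3 does not allow.

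The CD libraries differed from each other more than the control libraries did. The coefficient of variation was larger in CD for 7 of the 9 tested clock genes, close to the 76.4% of all tested genes for which this held. ARNTL and NR1D1 were the exceptions. Between the highest and the lowest CD library, the level in CPM differed 3.11-fold for CLOCK and 2.40-fold for NR1D2 but 1.15-fold for ARNTL. The order was not shared: CD replicate 3 was the lowest CD library for NR1D1, NR1D2, PER1, CRY2 and CLOCK and the highest for ARNTL, PER3 and DBP.

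**Figure D3:**
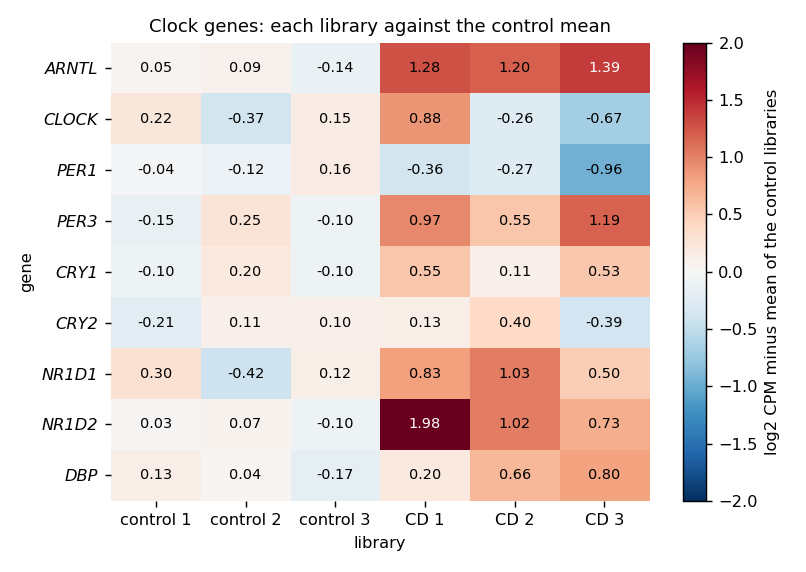
Log2 CPM, with a small prior count added, of the 9 tested clock genes (rows) in each library (columns), minus the mean of the control libraries; red is above and blue below that mean. ARNTL is even over the CD libraries (1.20 to 1.39), whereas NR1D2 goes from 0.73 to 1.98 and CLOCK from -0.67 to 0.88.

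Of the 5 genes that rose, ARNTL and NR1D2 were called under each of 15 alternative settings (other tests, scalings and filters, the replicate block and the omission of each library), whereas NR1D1 was not called in 3 of 15, PER3 in 2 of the 14 in which it was tested, and DBP in 5 of 15. PER1 was not called in 5 of 15. CRY1 and CRY2 were called in none of 15 and CLOCK in none of 14, DESeq2 included. Without control replicate 1, 2 or 3, or CD replicate 2, the number of clock genes called higher was 3, 3, 2 and 3. Tested against a 2-fold change with glmTreat of edgeR, none of the clock genes was called, so none is shown to have changed by more than 2-fold.

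**Figure D4:**
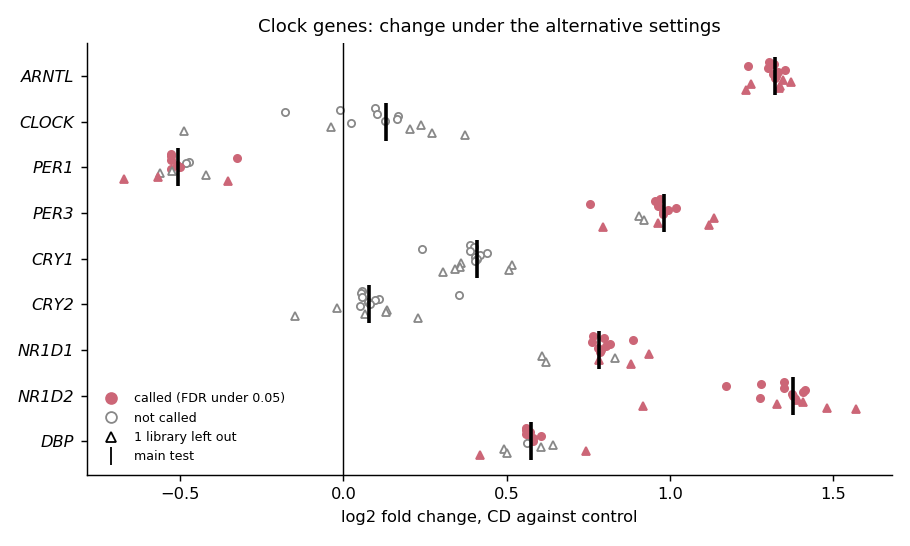
Log2 fold change of the 9 tested clock genes under the alternative settings; filled red symbols were called at an FDR under 0.05, triangles are the tests that left out 1 library, and the black bar is the main test. ARNTL keeps between 1.23 and 1.37, and CLOCK falls on both sides of 0, from -0.49 to 0.37.

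Beyond the 10 clock genes, 50 other genes of the clock pathway were sorted by role, of which 42 were found and 39 tested. The test called 11 of the 39 as higher and 6 as lower in CD (edgeR), 43.6% of those tested, against 47.7% of all genes. The median log2 fold change of 0.09 was also near that of all genes. The list as a whole thus held calls at about the rate of the background, and the values below are those of single genes. The counts by role are to be read against the 24.8% of all genes called higher and the 22.9% called lower. No role was tested as a set.

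From the list of other clock transcription factors, which also holds TIMELESS, 10 genes were found. NFIL3 and BHLHE40 rose, NPAS2 and TIMELESS fell, and 3 of the 7 tested were not called. NFIL3, a repressor that competes with DBP for D-boxes and is itself repressed by REV-ERBs, was at 22.9, 21.3 and 22.6 CPM in control and at 68.2, 69.8 and 64.6 CPM in CD libraries. The CD libraries were about equal and well apart from the control (log2 fold change 1.60 ± 0.12, FDR 4.62e-06, edgeR). BHLHE40, an E-box repressor, rose from 125 ± 8.32 to 236 ± 43.3 CPM (log2 fold change 0.92, FDR 6.16e-04, edgeR).

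NPAS2, which can take the place of CLOCK beside ARNTL, was at 15.05, 14.8 and 15.8 CPM in control and at 10.6, 10.3 and 5.26 CPM in CD libraries, with CD replicate 3 the lowest. The log2 fold change was -0.80 ± 0.25 (FDR 0.0225, edgeR), and the call was lost when any of the control libraries was left out. TIMELESS fell from 95.03 ± 4.37 to 11.0 ± 1.94 CPM, a log2 fold change of -3.10 (FDR 4.71e-07, edgeR). In mammals, TIMELESS is known mainly for its work at replication forks rather than in the clock.

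The PAR bZIP relatives of DBP, TEF and HLF, had lower mean levels in CD. TEF was at 19.4, 14.0 and 19.8 CPM in the control and at 13.2, 14.0 and 9.72 CPM in CD, with a log2 fold change of -0.53 that missed the threshold (FDR 0.0547, edgeR). TEF was called lower in 7 of 15 alternative settings, DESeq2 among them. HLF, with 6, 7 and 8 counts in control and 1, 3 and 0 counts in CD, was below the filter. Without the filter it was called lower (log2 fold change -2.31, FDR 0.0147, edgeR). RORA and RORB, receptors that activate ARNTL at the elements where REV-ERBs repress it, had few reads. RORA had at most 4 counts in any library, and RORB, with at most 21 counts, had a log2 fold change of 0.42 (95% interval from -0.65 to 1.49, FDR 0.503, edgeR).

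Of 10 tested enzymes that modify clock proteins, 4 rose and none fell, against 24.8% higher and 22.9% lower among all tested genes. Among the 4 were CSNK1A1, a casein kinase, with 66.3 ± 4.88 CPM in control and 126 ± 29.7 CPM in CD (log2 fold change 0.93, FDR 0.00119, edgeR), and the F-box proteins FBXW11 and FBXW7, which select proteins for ubiquitination. FBXW11, an F-box protein that recognizes phosphorylated PER, had a log2 fold change of 0.67 (FDR 0.00216) and FBXW7 of 1.09 (FDR 0.00123, edgeR). CSNK1D, the main PER kinase among those found, had a log2 fold change of -0.09 (95% interval from -0.34 to 0.15, FDR 0.520, edgeR).

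Of 8 cofactors, WDR5, a subunit of histone methyltransferase complexes, was called, with a log2 fold change of -0.62 (FDR 0.00228, edgeR). NCOR1 and HDAC3, through which REV-ERBs repress their targets, had log2 fold changes of -0.09 and 0.03, with 95% intervals from -0.36 to 0.18 and from -0.22 to 0.27 (edgeR).

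The 6 genes listed as clock outputs held 4 higher and 1 lower gene, against 24.8% higher and 22.9% lower among all tested genes. NAMPT, the rate-limiting enzyme of NAD salvage and an E-box target of the clock, was at 30.5, 33.1 and 28.3 CPM in control and at 246, 188 and 225 CPM in CD libraries. The groups were far apart, with a log2 fold change of 2.84 ± 0.14 (FDR 4.18e-07, edgeR), or 7.17-fold. KLF9, a transcription factor with few reads, rose from 0.869 ± 0.284 to 3.93 ± 1.76 CPM (log2 fold change 2.17, FDR 0.00111), ALAS1, the first enzyme of heme synthesis, from 117 ± 3.10 to 264 ± 12.9 CPM (1.18, FDR 1.40e-05), and WEE1, a kinase that holds back entry into mitosis, from 22.0 ± 1.33 to 41.4 ± 2.95 CPM (0.91, FDR 3.20e-04; all edgeR). POR, which passes electrons to cytochrome P450 enzymes, had a log2 fold change of -0.38 (FDR 0.0265, edgeR) and was not called with the replicate block or without control replicate 2 or 3. Each of these genes also has regulators outside the clock.

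Among the 8 tested genes that carry signals to the clock, NR3C1 rose and CRTC1 and HSF1 fell. NR3C1, the glucocorticoid receptor, was at 60.8, 55.6 and 53.8 CPM in control and at 153, 97.9 and 61.1 CPM in CD libraries. CD replicate 3 was thus level with control replicate 1, and the log2 fold change of 0.88 (FDR 0.0211, edgeR) was not called without control replicate 2 or 3, or without the filter on low counts. Without CD replicate 1 it was called, at 0.50 (FDR 0.0450, edgeR). CRTC1, a coactivator of CREB, had a log2 fold change of -0.55 (FDR 0.0208) and HSF1, the heat shock factor, of -0.42 (FDR 0.0135, edgeR). CRTC1 was not called without control replicate 1 or 3, nor HSF1 without control replicate 1 or 2. CREB1 itself was at 2.46 ± 0.424 CPM without and at 2.60 ± 1.05 CPM with CD (FDR 0.820, edgeR).

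**Figure D5:**
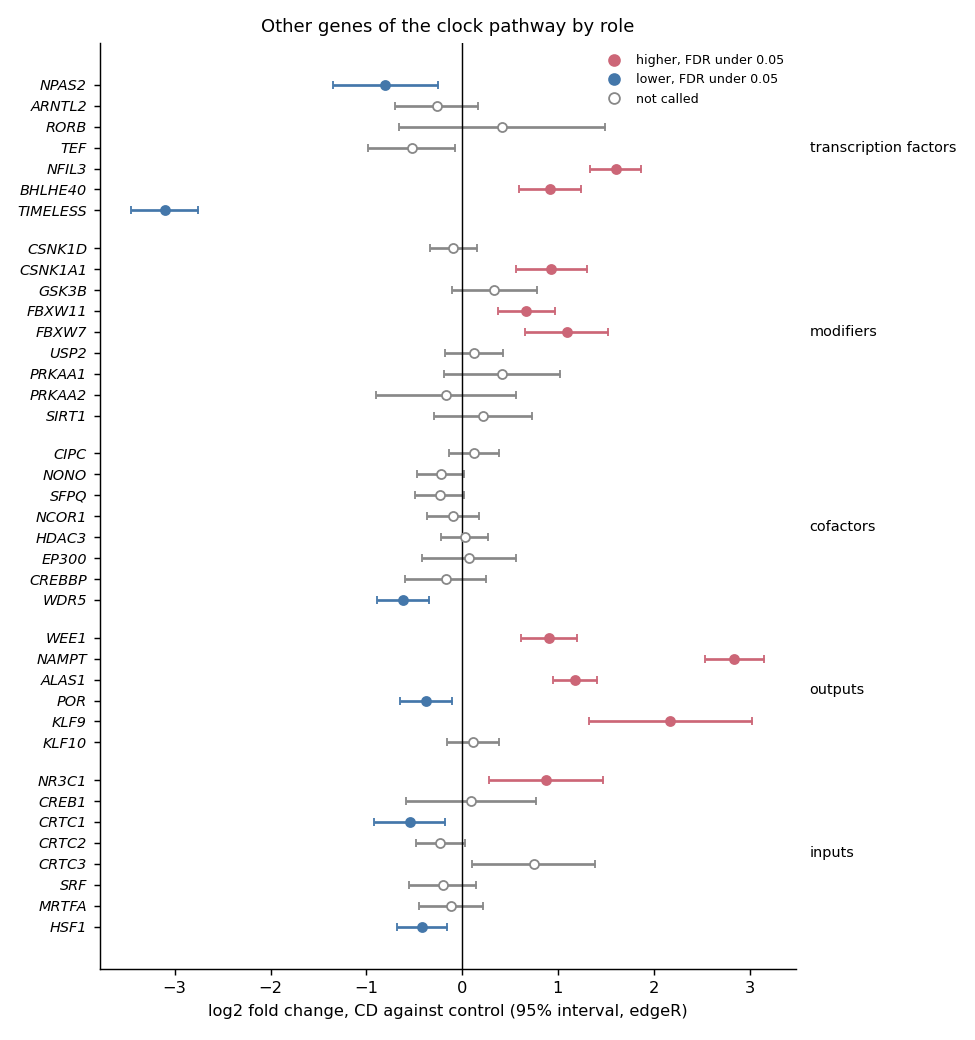
Log2 fold change of CD against control for tested genes of the rest of the clock pathway, by role, with 95% intervals from edgeR; filled points passed an FDR of 0.05. NAMPT (2.84) and TIMELESS (-3.10) are the farthest from 0, and most cofactors lie close to it.

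The genes with the pattern most like that of ARNTL were CFL2, LONRF1 and ZFAND5, at a Euclidean distance of 0.0755, 0.136 and 0.144 in log2 CPM (relative to the control mean) over the 6 libraries, among 10089 other tested genes with a symbol. For PER1 they were ZNF335, NAT8L and ABCA2, at 0.115, 0.120 and 0.120. Over 6 libraries in 2 groups, such likeness reflects mostly the size of the change and is given as a description.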

How the data were processed

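The authors trimmed and filtered the reads with fastp 0.20.1, aligned them to mink assembly NNQGG.v01 with STAR 2.7.2a and compared the groups with DESeq2 1.30.1. They deposited raw read counts per gene, which were analysed here. The counting program and its strand setting are not given in the sources used here, so counts of overlapping, antisense and near-identical genes are uncertain. The 4 rows that name no gene (29.3% to 47.2% of the reads) were left out of library sizes and tests. The normalized files, scaled copies of the counts, were not used here. No sequences or coordinates of the authors' build were at hand.

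Groups and replicate numbers come from the sample labels, which do not say that the libraries came from separate cultures, so p-values measure the spread between these libraries. CD was compared with control in edgeR 4.0.16 (R 4.3.3) over all 6 libraries by glmQLFit (robust) and glmQLFTest after TMM scaling, with condition as the only term. Genes were kept by filterByExpr (minimum count 10, minimum total 15), and FDR values are Benjamini-Hochberg over 12148 genes, called at 0.05. The standard error is the log2 fold change divided by the square root of F. The median standard error was 0.18, the precision that this depth and 3 libraries give. Ratios within a library used counts plus 0.5 and an exact permutation test.

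The members and lists were chosen with earlier results of these data known. The text names all members, the other clock genes called in the test (the rest by counts, range or role), and the 3 genes nearest to the higher and the lower member with the lowest FDR. Uncalled genes, HLF and THRA were named after their values were seen. PRKAA1 was matched by the name AAPK1, and MRTFA by its description. Some listed genes are counted but not reported here by name. Other pathway genes not found were BHLHE41, CIART, CSNK1E, CSNK2A1, CSNK2B, FBXL21, BTRC and SIK1. Alternatives were DESeq2 1.42.0, limma-voom (limma 3.58.1) without and with library weights, other scalings and filters, the replicate block, each library left out, an FDR of 0.01 and a test against a 2-fold change.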

Additional observations from a re-analysis of the deposited data

How the results depend on the processing

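The number of clock genes called higher, 5 in the main test, was 2 at an FDR of 0.01, 0 in the test against a 2-fold change and 2 to 5 with each library left out. The number called lower, 1, was 0 at an FDR of 0.01, in the test against a 2-fold change, with upper-quartile scaling and with total counts, and 0 to 1 with each library left out. Of the other clock pathway genes, 11 higher and 6 lower became 3 and 1 in the test against a 2-fold change, the lower ones 2 at an FDR of 0.01, and 9 to 15 and 3 to 9 with each library left out (3 lower without control replicate 1 or 3, 9 without CD replicate 3). Over all genes, 3016 higher and 2784 lower became 591 and 569 in the test against a 2-fold change, and the higher ones 2006 at an FDR of 0.01. With each library left out they were 2193 to 3582 and 2158 to 3575, with the highest numbers without CD replicate 3. Among the clock genes, the sign turned for CRY2 without control replicate 1 (log2 fold change -0.020) and without CD replicate 2 (-0.15) and for CLOCK in limma-voom (-0.012), in limma-voom with library weights (-0.18), without control replicate 2 (-0.037) and without CD replicate 1 (-0.49), neither of which was called in the main test. Among the other pathway genes it turned in at least 1 setting for PRKAA2, HDAC3, EP300, CREB1 and MRTFA, which were not called in the main test either. Without CD replicate 3 the log2 fold changes were 0.23 for CRY2 and 0.37 for CLOCK. PER1 was at -0.33 in limma-voom with library weights and -0.35 without CD replicate 3. The differences in log2 ratio kept their sign with 1 count added and with each library left out, with ranges of -0.71 to -0.12 for NR1D1 to NR1D2, 0.098 to 0.69 for PER1 to PER2, -1.80 to -1.12 for PER1 to PER3, -2.49 to -1.39 for PER2 to PER3, 0.063 to 0.68 for CRY1 to CRY2 and -1.81 to -0.94 for CLOCK to ARNTL. The cause of these changes was not tested, beyond the smaller number of libraries.

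The labels give the control and CD libraries a shared replicate number and do not say whether they were paired. With 3 libraries per group, correlations between libraries cannot decide this. The deviations of same-numbered libraries from their group means correlated between -0.329 and -0.024. No CD library correlated best with the control library of its own number. With the replicate number as a block, 2772 genes were higher and 2636 lower, as were 4 and 1 of the clock genes and 12 and 5 of the other pathway genes. Depth limits PER2, RORA and HLF.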
